A study of Mus musculus with 45 samples.

Results

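Meg3, Rian and Mirg are 3 long noncoding RNAs transcribed one after the other from the same strand of mouse chromosome 12, in the imprinted Dlk1-Dio3 region. The region was followed here in neural progenitors, in cells on the way to induced pluripotent stem cells and in embryonic stem cells. The members were the 6 genes Meg3, Rian, Mirg, Dlk1, Rtl1 and Dio3, of which 5 had a row among the 23575 genes of the gene table. Rtl1 had no gene row and no transcript row and is not described further. The members were chosen by measured values, since Rian was among the largest lncRNA rises in the R10 stem cells over progenitors and differences between stem cell lines were named in the choice. Those contrasts are therefore given as a description, without p-values for the members. Where the number of members past a threshold is given for them, nothing is read from it.

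In an imprinted region each parental copy is marked, and a gene is read mainly from the copy of one parent. At this locus Meg3, Rian and Mirg are read from the maternal chromosome, and the protein-coding genes Dlk1, Rtl1 and Dio3 mainly from the paternal one. The marks sit on a control region between Dlk1 and Meg3. Silencing of the maternal noncoding RNAs is well known from some mouse induced pluripotent stem cell lines, and in stem cells these RNAs are commonly used as a sign of the state of the locus. Meg3 is a spliced noncoding RNA, Rian hosts C/D box small nucleolar RNAs (snoRNAs), and Mirg hosts a cluster of microRNAs.

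The 45 libraries were long-read cDNA libraries run on Oxford Nanopore flow cells. In the 22 R9 libraries poly(A)-selected RNA was turned into cDNA and read without amplification. In the 23 R10 libraries cDNA from total RNA was amplified by PCR first, so every test stays within 1 chemistry and values of both are only set side by side. Progenitors derived from the Oct4-GFP stem cell line O4G, which is R1 with a GFP reporter driven by the Oct4 promoter, were grown in N2B27 with EGF, FGF-2 and heparin. They were wild type (WT) or had been stably transfected with the factors, as genotype OKMS-Luciferase-AS or OKS-Luciferase-AS, which doxycycline induces. There were 2 WT, 1 OKMS and 1 OKS progenitor library in each chemistry. OKMS and OKS cells in serum medium with LIF and doxycycline (FBS-LIF with dox) were sampled in R9 at days 2, 4, 6, 10, 14 and 20, and in R10 at days 2, 6 and 18, with days 4 and 10 for OKMS alone. Reprogrammed cells in 2i-LIF (N2B27 with LIF, the GSK3 inhibitor CHIR-99021 and the MEK inhibitor PD0325901) were represented by 3 R9 libraries (OKMS at days 14 and 20, OKS at day 20) and 2 R10 libraries (OKMS and OKS at day 18). WT cells after 2 days in FBS-LIF with dox gave 1 R9 and 2 R10 libraries. The stem cells, also in 2i-LIF, were O4G and R1 with 1 library each in R9, and in R10 there were 2 libraries of O4G, 2 of R1-Clone3 and 3 of R1. All reprogrammed cells were of O4G origin, while R1-Clone3 is by name 1 clone. The labels do not say which libraries came from separate cultures, so p-values measure only the spread between these libraries.

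Levels are the deposited counts scaled to library depth (CPM), from which whole reads could be recovered. The R9 libraries held 447990 to 1390424 reads and the R10 libraries 566599 to 4236442 reads. The labelled cell types were checked against marker genes. The 6 pluripotency markers summed to 8847 to 12225 CPM in the R9 reprogrammed cells in 2i-LIF and to 11042 to 12352 CPM in the R9 stem cells. In R10 these ranges were 13223 to 14926 and 10276 to 12960 CPM. Sums are weighted to the most abundant marker. By gene, the R10 reprogrammed cells differed from stem cells by a median of -0.18 on the log2 scale, beside -0.09 over all tested genes. In limma 4 of the 6 had an unadjusted p under 0.05. The 7 progenitor markers summed to at least 4927 CPM in every progenitor library and to at most 90.7 CPM in every reprogrammed library in 2i-LIF, against at most 52.7 CPM in stem cells. That highest value was in the R10 R1 library whose label carries no n number (replicate 3), while the other 6 R10 stem cell libraries had 6.49 to 11.6 CPM. The same library had 0.124% mitochondrial reads against 1.81% to 2.35% in the other 6.

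The deposited transcripts placed the members on chromosome 12 of the mm10 build, all on the plus strand, in the order Dlk1 (109453185 to 109460713), Meg3 (109540686 to 109571726), Rian (109632341 to 109661716), Mirg (109741606 to 109749458) and Dio3 (110279229 to 110281091). The 5 genes had 7, 16, 11, 2 and 1 deposited transcripts, 37 of 276608 in all. RefSeq lists 54 microRNA hairpins on this strand between Dlk1 and Dio3, of which 6 lay within the deposited span of Mirg and 1 within that of Meg3. Of the 16 Meg3 transcripts, 7 began within 10 bases of the RefSeq start site at 109540996. The 300-base RefSeq windows around the Meg3 and Dio3 start sites (GRCm38.p6, 250 bases before to 50 after the start, plus strand) are shown because the differences of these genes between reprogrammed and stem cells had opposite signs. Capitals mark the letters TGCCGC on either strand, the core bound by the imprint-protecting factor ZFP57 when methylated.
Meg3, chr12:109540746-109541045: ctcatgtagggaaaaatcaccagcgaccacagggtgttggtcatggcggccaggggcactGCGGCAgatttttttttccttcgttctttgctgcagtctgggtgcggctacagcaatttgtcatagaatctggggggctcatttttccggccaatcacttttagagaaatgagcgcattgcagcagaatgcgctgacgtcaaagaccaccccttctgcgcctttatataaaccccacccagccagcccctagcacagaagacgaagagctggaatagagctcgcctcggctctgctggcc
Dio3, chr12:110278980-110279279: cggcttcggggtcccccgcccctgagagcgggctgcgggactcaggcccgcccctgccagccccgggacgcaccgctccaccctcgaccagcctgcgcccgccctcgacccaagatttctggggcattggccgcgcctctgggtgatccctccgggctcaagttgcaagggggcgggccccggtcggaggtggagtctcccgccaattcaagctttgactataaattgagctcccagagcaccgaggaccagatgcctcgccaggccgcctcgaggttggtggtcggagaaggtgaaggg
The Meg3 window shown held 13 CG pairs and 1 match to TGCCGC, on the minus strand. A second RefSeq window of Meg3, for the start site at 109545398, is not shown and held 1 CG pair and 0 matches. The Dio3 window held 25 CG pairs and 0 matches. Of 32851 RefSeq windows of this length, 11.6% held the letters on either strand, and the median number of CG pairs was 7. At least as many CG pairs as in the Meg3 window shown were found in 37.9% of windows. For the Dio3 window this share was 18.4%.

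Meg3, Rian, Mirg and Dio3 were at or near 0 in progenitors and present in every stem cell library. Meg3 had 0, 0, 0 and 2.67 CPM in the 4 R9 progenitor libraries, and 157 CPM in O4G and 210 CPM in R1 stem cells. In R10 it had 0.574 to 3.51 CPM in progenitors (4 libraries) and 153, 217 and 251 CPM as the lowest, median and highest of 7 stem cell libraries. Rian had at most 1.34 CPM in any R9 progenitor library, against 94.7 CPM in O4G and 67.0 CPM in R1 stem cells. In R10 Rian was at most 0.635 CPM in progenitors and 129, 171 and 193 CPM (lowest, median and highest) in stem cells. None of the stem cell values of Meg3 and Rian came near those of progenitors in either chemistry.

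Mirg had no read in any of the 8 progenitor libraries, which allows up to 5.06 CPM (3 reads) in the shallowest of them, for counting error only. It stood at 19.9 CPM in O4G and 40.0 CPM in R1 stem cells in R9, and at 3.87 to 14.6 CPM in the 7 R10 stem cell libraries. Dio3, which encodes the deiodinase that inactivates thyroid hormone, also had no read in any progenitor library. Its stem cell levels were low, at 5.68 and 2.79 CPM in R9 and between 1.88 and 7.75 CPM in R10. Dlk1 encodes a transmembrane protein related to Notch ligands and was the member with the higher level in progenitors. It had 0 to 21.4 CPM in R9 and 2.58 to 6.03 CPM in R10 progenitors, against 0.931 and 3.79 CPM in R9 and 0.236 to 2.99 CPM in R10 stem cells. The R9 ranges of Dlk1 overlapped, and in R10 the lowest progenitor library lay below the highest stem cell library.

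In the R9 libraries, 4 of the 5 members were called higher in stem cells, where 36.0% of all tested genes were called in either direction. A call here needs a Benjamini-Hochberg adjusted p under 0.05 in limma, over all tested genes, and an absolute difference of at least 1 on the log2(CPM + 1) scale. Tested genes had at least 1 CPM in as many libraries as the smaller arm. Meg3, Rian, Mirg and Dio3 passed this filter only through the stem cell libraries, where they are high. Their p-values are therefore no independent support. Meg3 rose by 7.04 ± 0.62 (SE, adjusted p = 0.000284), Rian by 5.78 ± 0.48 (adjusted p = 0.000226) and Mirg by 4.87 ± 0.35 (adjusted p = 0.000128). Dio3 rose by 2.33 ± 0.29 (adjusted p = 0.00111), and with DESeq2 on the recovered reads its difference was 4.24 (adjusted p = 0.0762). Dlk1 differed by -0.82 ± 1.21 (adjusted p = 0.617). In R10, where the choice of genes used this contrast, the differences were 6.44 for Meg3, 7.08 for Rian, 3.16 for Mirg, 2.11 for Dio3 and -1.26 for Dlk1. As a description of values that the choice used, all 5 members and 45.8% of all tested genes were past those thresholds, and nothing is read from that count.

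**Figure D1:**
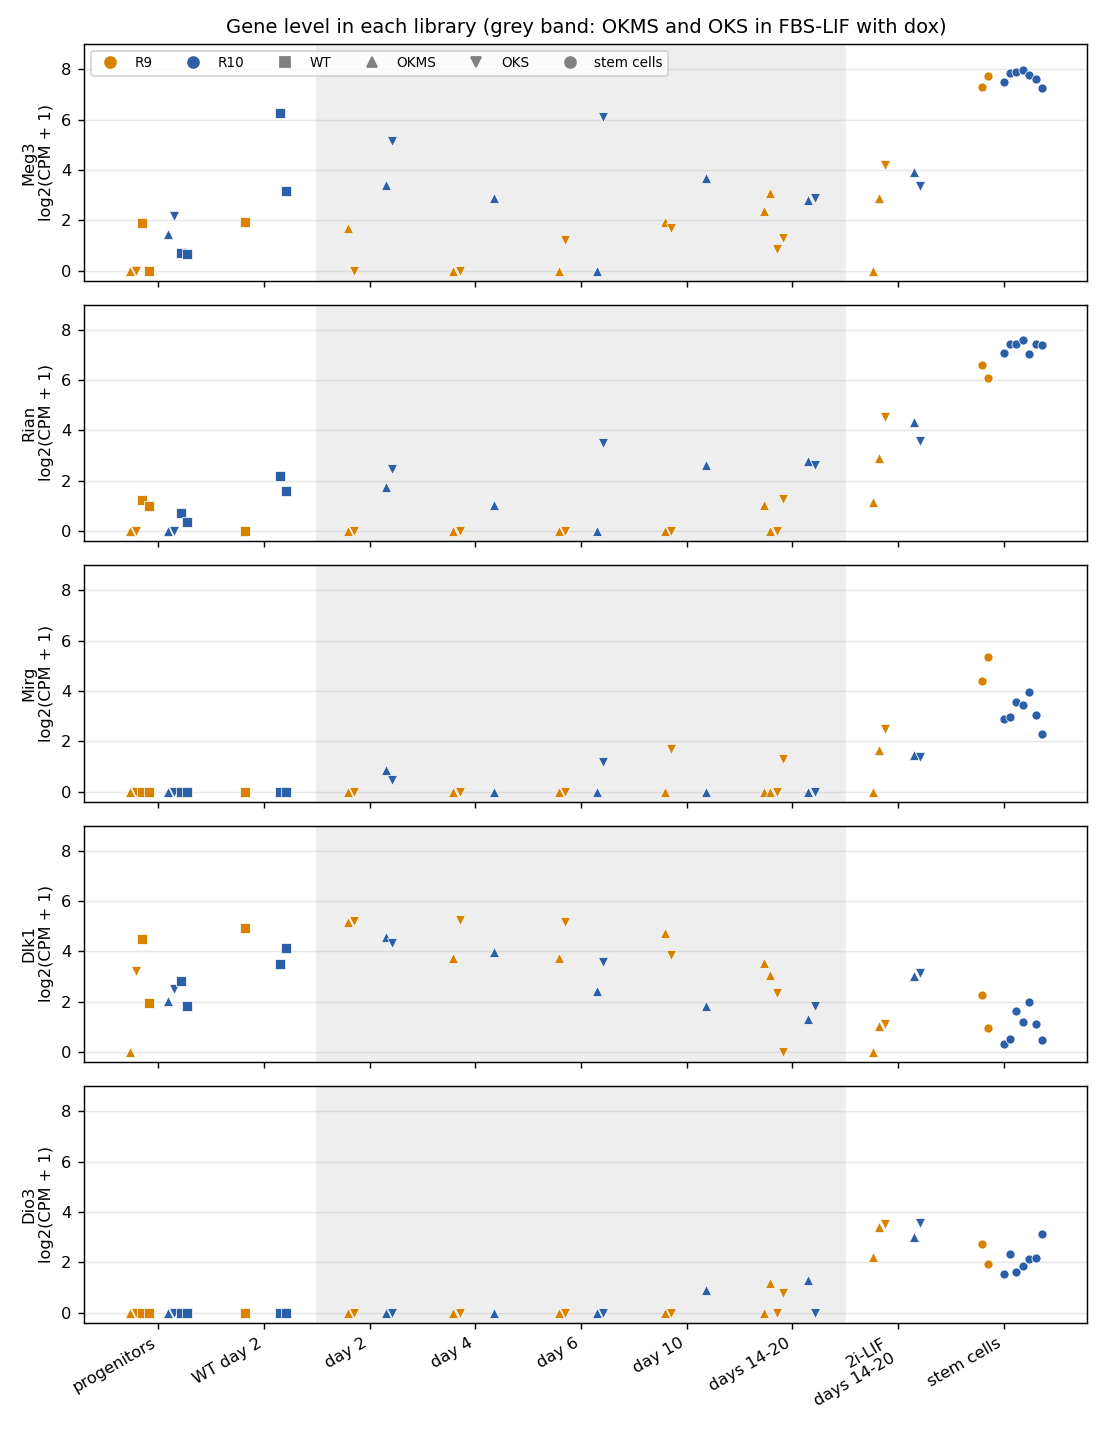
Each panel shows log2(CPM + 1) of 1 gene (y axis) in every library, grouped by condition (x axis), with R9 in orange and R10 in blue, squares for WT, triangles pointing up for OKMS and down for OKS, and circles for stem cells. Meg3, Rian and Mirg are highest in the stem cells, and the reprogrammed cells in 2i-LIF lie below them in all 5 libraries, whereas Dio3 reaches the stem cell range there.

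Meg3, Rian and Mirg were each below the lowest stem cell library of the same chemistry in every reprogrammed library in 2i-LIF, on few reads for Mirg. How often genes in general lie below the stem cells in this way was not counted, so nothing is read from it. In R9, Meg3 had no read in OKMS at day 14 (3 reads would be 3.66 CPM), 6.45 CPM in OKMS at day 20 and 17.5 CPM in OKS at day 20. In R10, at day 18, it had 14.1 CPM in OKMS and 9.39 CPM in OKS, on 8 and 6 reads. The highest of these 5 values was below the lowest stem cell library of its chemistry, and the mean was 4.34% of the stem cell mean in R9 and 5.63% in R10. Meg3 differed by -5.15 ± 0.84 on the log2(CPM + 1) scale in R9 (limma, adjusted p = 0.012) and by -4.05 ± 0.21 in R10 (adjusted p = 7.88e-08). The R10 arms differ in depth, with 566599 and 638701 reads in the reprogrammed libraries against 2226725 to 4236442 in the stem cell libraries.

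Rian, the snoRNA host, had 1.22, 6.45 and 22.1 CPM in the same 3 R9 libraries, and 19.4 and 10.9 CPM in R10 OKMS and OKS. Its R10 values rest on 11 and 7 reads. The groups did not overlap with stem cells in either chemistry, and the share of all genes without overlap was not counted. The mean was 12.3% of the stem cell mean in R9 and 9.30% in R10. The difference was -3.47 ± 0.70 in R9 (limma, adjusted p = 0.0378) and -3.38 ± 0.21 in R10 (adjusted p = 6.82e-07). Mirg had 0, 2.15 and 4.66 CPM in R9 and 1.76 and 1.56 CPM in R10, the R10 values resting on 1 read each. Their 95% Poisson intervals, for counting error only, reached 9.82 and 8.72 CPM and so covered part of the R10 stem cell range of 3.87 to 14.6 CPM. Its difference was -3.49 ± 0.69 in R9 (adjusted p = 0.0351) and -1.75 ± 0.41 in R10 (adjusted p = 0.0176).

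Of the 5 members, 3 were called lower in R9, where 0.711% of all genes were called, and 3 lower and 1 higher in R10, where 9.06% were called. The choice named each reprogrammed library beside the line differences, and whether values of this contrast entered it is not recorded. The R10 stem cell libraries are shared with the contrast that the choice used. The p-values here are therefore read with that limit. In R9, where the stem cell arm holds 2 libraries, none of the 3 calls was kept when any 1 of the 5 libraries was left out, with a pseudocount of 0.25, with no filter or with quantile normalization. With DESeq2 those of Meg3 (-4.48, adjusted p = 0.172) and Rian (-2.98, adjusted p = 0.389) were lost. Over all 13 alternatives the differences lay between -2.62 and -4.31 for Rian and between -2.79 and -4.31 for Mirg. With a library left out, the adjusted p of Meg3 ran from 0.0738 (without OKS at day 20) to 0.746 (without the R1 stem cells), with differences between -3.96 and -6.07. In R10, Meg3 and Rian were called under all 18 alternatives, among them the 2 O4G stem cell libraries alone. Where OKMS or OKS was left out, 1 reprogrammed library remained, so the spread came from the stem cells alone. On simulated data with 200 changed genes, the R10 fit called more unchanged than changed genes. Since the 200 was a setting, this gives no share of false calls on the real data. There edgeR called 270 and DESeq2 469 genes where limma called 1438. Of the other R10 calls, that of Mirg was lost with edgeR (-2.40, adjusted p = 0.146) and with DESeq2 (-2.32, adjusted p = 0.283). It was also lost with OKMS (-1.80) or OKS (-1.70) left out of the reprogrammed libraries, and with O4G alone (-1.50) or R1 and R1-Clone3 alone (-1.85) as the stem cells. In bulk samples, fewer cells with the RNA and less of it per cell cannot be told apart. The 7 mesenchymal markers, such as Col1a1, summed to 15.0 to 22.0 CPM in the R9 reprogrammed libraries and 7.57 to 10.2 CPM in stem cells, and to 12.3 to 23.5 against 5.18 to 16.7 CPM in R10. The 4 astrocyte markers summed to 5.82 to 14.0 CPM in the R9 reprogrammed libraries against 34.4 to 35.0 CPM in stem cells, while in R10 the ranges overlapped. In R10 the 5 neuron markers summed to 219 to 242 against 259 to 472 CPM, and the 3 primitive endoderm markers to 4.69 to 12.3 against 0.747 to 5.51 CPM. The 2 trophoblast markers summed to 26.8 to 34.4 against 41.7 to 58.6 CPM in R9, while in R10 the ranges overlapped. The part of these marker sets in the results was not tested.

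The means of Dio3 in reprogrammed cells were above those of stem cells in both chemistries, and Dlk1 differed in sign between them. Dio3 had 3.66, 9.67 and 10.5 CPM in the R9 reprogrammed libraries (OKMS at day 14, OKMS at day 20, OKS at day 20), and 7.05 and 10.9 CPM in R10 OKMS and OKS. Its mean was 187% of the stem cell mean in R9 and 250% in R10. The difference was 0.72 ± 0.57 in R9 (limma, adjusted p = 0.66) and 1.19 ± 0.42 in R10 (adjusted p = 0.0834), neither past the threshold. Leaving out the second R1-Clone3 library, the highest of the stem cells in Dio3, gave an adjusted p of 0.0373 in R10. Dlk1 was 7.05 and 7.82 CPM in R10, above all 7 stem cell libraries (2.04 ± 0.45, adjusted p = 0.0147), but 0, 1.07 and 1.16 CPM in R9 (-0.88 ± 0.66, adjusted p = 0.636). The R10 values of Dlk1 rest on 4 and 5 reads, and its call was lost under the same 6 alternatives as that of Mirg, at differences of 1.79 to 2.66, with an adjusted p of 0.121 with edgeR and 0.0583 with DESeq2.

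**Figure D2:**
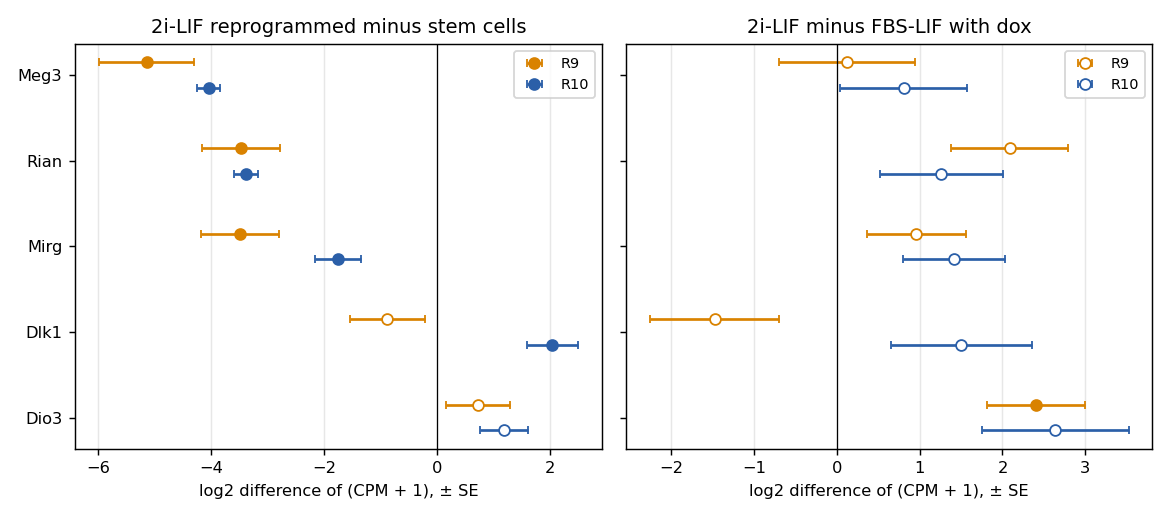
The left panel gives the log2 difference of (CPM + 1) with its SE (x axis) for each gene (y axis) between reprogrammed cells in 2i-LIF and stem cells, and the right panel between 2i-LIF and FBS-LIF with dox, with R9 in orange and R10 in blue and filled points for called genes. Meg3, Rian and Mirg lie left of 0 in the left panel in both chemistries, while Dio3 lies right of 0 in both panels.

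The change of medium was compared within pairs of one factor system and day. Meg3 in R9 went from 4.22 to 0 CPM in OKMS at day 14, from 7.39 to 6.45 CPM in OKMS at day 20 and from 1.44 to 17.5 CPM in OKS at day 20. In R10 it went from 5.94 to 14.1 CPM in OKMS and from 6.40 to 9.39 CPM in OKS. Rian was 1.06, 0 and 1.44 CPM in the R9 serum libraries of these pairs, and 5.94 and 5.12 CPM in R10. Neither gene was called higher in 2i-LIF, with Rian at 2.08 ± 0.70 in R9 (limma, adjusted p = 0.09). Rian was called with edgeR (adjusted p = 0.00718) and when the OKMS pair of day 14 was left out (adjusted p = 0.0195). It passed the filter of 1 CPM only with the 2i-LIF libraries. Dio3 had 0, 1.23 and 0.719 CPM in the R9 serum libraries and 1.48 and 0 CPM in R10, each at most 1 read. It was the only member called in R9, at 2.41 ± 0.59 (adjusted p = 0.0234), where 7.53% of genes were called. It passed the filter of 1 CPM only through the 2i-LIF libraries, where it is high, so its p-value is no independent support. Its call was lost without the OKMS pair of day 14 (2.50, adjusted p = 0.0649), without the OKS pair of day 20 (2.24, adjusted p = 0.13) and with DESeq2 (3.66, adjusted p = 0.195). In R10, where 1.22% of genes were called, limma called 0 of the 5 members, edgeR and DESeq2 called 0, and 2 had an unadjusted p under 0.05. Cell type markers moved in the same pairs. In R9 the neural progenitor markers summed to 440, 55.4 and 272 CPM in FBS-LIF with dox and to 22.0, 21.5 and 69.8 CPM in 2i-LIF, in the order of pairs given for Meg3. The mesenchymal markers summed to 437, 83.7 and 395 CPM and to 22.0, 15.0 and 17.5 CPM. Of the markers tested in R9, limma called 2 of 6 pluripotent genes higher, and 1 of 5 neural progenitor, 2 of 3 neuron and 2 of 6 mesenchymal genes lower. In R10 the neural progenitor sums went from 117 to 17.6 CPM in OKMS and from 1241 to 90.7 CPM in OKS, and the mesenchymal sums from 77.2 to 12.3 CPM and from 415 to 23.5 CPM. The part of these markers in the values of the members was not tested.

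Early in FBS-LIF with dox, Meg3 was read at high levels in some R10 libraries without Rian or Mirg at comparable levels. The 2 R10 libraries of WT cells at day 2 had 75.9 CPM (replicate 2) and 7.91 CPM (replicate 3), and OKS cells had 34.3 CPM at day 2 and 67.0 CPM at day 6. R10 OKMS cells had 9.48, 6.38, 0 and 11.9 CPM at days 2, 4, 6 and 10. In R9, Meg3 was at most 2.83 CPM, the WT value of day 2, in every library of days 2 to 10. The R9 OKS libraries of days 2 and 6 had 0 and 1.34 CPM. Rian reached 3.52 CPM in the R10 WT library with 75.9 CPM of Meg3 and 10.2 CPM in OKS at day 6, and Mirg had 0 and 1.28 CPM there. The labels do not tell if an R9 and an R10 library share their RNA.

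In R10, WT cells in FBS-LIF with dox were compared with WT cells in their own medium. Meg3 was called higher, 1 of the 3 members tested, at 4.03 ± 1.00 (limma, adjusted p = 0.0334), where 26.8% of genes were called. Meg3 and Rian passed the filter of 1 CPM only through the day 2 libraries, where they are higher, so their p-values are no independent support. The tested genes as a whole shifted by 0.12. Leaving out any 1 of the 4 libraries leaves 1 library in an arm. Without day 2 replicate 2 the difference of Meg3 was 2.47 (adjusted p = 0.0576), and without WT progenitor replicate 2 or 3 it was 4.06 or 4.00 (adjusted p = 0.288 and 0.298), in fits that called 0 of all genes. Without day 2 replicate 3 it was 5.58 (adjusted p = 0.0362), in a fit that called 1141 genes. Rian differed by 1.34 ± 0.41 (adjusted p = 0.0588) and Dlk1 by 1.49 ± 0.50 (adjusted p = 0.0759). Markers of several cell types also differed in these libraries. Of the genes tested, limma called 2 of 4 astrocyte, 2 of 5 mesenchymal and 1 of 3 neuron genes higher, and 1 of 4 pluripotent genes lower. The 7 neural progenitor markers summed to 3255 CPM in replicate 2 and 6267 CPM in replicate 3, with none at 0, against 6338 to 7985 CPM in the R10 progenitors, and 4 of them were called lower. In OKS they summed to 4971 CPM at day 2 and 3132 CPM at day 6. The astrocyte set, the 4 markers Gfap, Aqp4, Aldh1l1 and S100b, summed to 3057 CPM in replicate 2 and 1188 CPM in replicate 3, with none at 0, against 42.6 to 181 CPM in the R10 progenitors. The sum was 633 CPM in OKS at day 2 and 185 CPM in OKS at day 6. The 7 mesenchymal markers summed to 100.6 and 231 CPM in the WT libraries (replicates 2 and 3), 521 CPM in OKS at day 2 and 692 CPM in OKS at day 6. They summed to 20.3 to 106 CPM in the R10 progenitors, with 20.3 and 31.3 CPM in the WT ones. The part of these markers in the Meg3 values was not tested. Before induction, limma, edgeR and DESeq2 called 0 of the 2 members tested between factor-carrying and WT progenitors in R10 (1.51% of genes called in limma), and 1, Meg3, had an unadjusted p under 0.05.

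Over the R9 time course in FBS-LIF with dox, Dlk1 was read in all libraries but OKS at day 20. In OKS cells it had 36.1, 37.2, 34.8, 13.4, 4.14 and 0 CPM at days 2, 4, 6, 10, 14 and 20. In OKMS cells it had 35.0, 12.5, 12.3, 25.3, 10.6 and 7.39 CPM at the same days, and WT cells at day 2 had 29.7 CPM. The OKS values of days 2 to 6 lay above every later one. Cell type markers also moved in the OKS libraries. From day 2 to day 20 the neural progenitor sum went from 6070 to 272 CPM and the astrocyte sum from 290 to 5.75 CPM. The pluripotent sum went from 25.4 to 6781 CPM. The part of these markers in the Dlk1 values was not tested. Rian was at 0 in 10 of the 12 R9 libraries and Mirg in 10. Limma's moderated F test over days called 0 of the 4 members tested (10.7% of genes called), with 1 at an unadjusted p under 0.05. That was Dlk1 (adjusted p = 0.147), which edgeR called (adjusted p = 1.08e-06) and DESeq2 did not. Between OKMS and OKS cells Meg3 differed by 0.67 ± 0.50 (adjusted p = 0.338) and Dlk1 by 0.36 ± 0.52 (adjusted p = 0.638).

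Values of the stem cell lines overlapped in Rian, and those of R1 were the highest in Mirg. This is a description, since line differences entered the choice. How often genes in general separate by line in this way was not counted. In R10, Meg3 had 180 and 227 CPM in O4G, 236, 251 and 217 CPM in R1, and 196 and 153 CPM in R1-Clone3. The R1 and R1-Clone3 values did not overlap, with a difference of 0.43 ± 0.17 on the log2(CPM + 1) scale, and O4G overlapped with both. Rian had 134 and 174 CPM in O4G, 171, 193 and 129 CPM in R1, and 173 and 168 CPM in R1-Clone3, and all 3 lines overlapped. Mirg had 6.36 and 6.72 CPM in O4G, 10.9, 9.84 and 14.6 CPM in R1, and 7.25 and 3.87 CPM in R1-Clone3. These values rest on 15 to 27, 30 to 42 and 10 to 25 reads a library. All 3 R1 libraries of Mirg lay above the other 4, by 0.74 ± 0.32 over O4G and 0.99 ± 0.32 over R1-Clone3. The highest of them, replicate 3, is the library that stood apart in mitochondrial reads and progenitor markers, and without it these differences of Mirg were 0.59 and 0.84. The part of those features in the line differences was not tested. In R9, R1 was also above O4G in Mirg (40.0 against 19.9 CPM) and Meg3 (210 against 157 CPM), and below it in Rian (67.0 against 94.7 CPM), with 1 library a line. Dlk1 was 1.31 to 2.99 CPM in R1 and 0.236 and 0.448 CPM in O4G, the O4G values resting on 1 read each. The highest R1 value of Dlk1 was again in replicate 3, and the difference to O4G of 1.19 ± 0.38 was 1.00 without it. In R9 the order of Dlk1 was the opposite, with 3.79 CPM in O4G and 0.931 CPM in R1.

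The order of Meg3, Rian and Mirg by level differed between the chemistries per length, on the deposited TPM scale summed over the transcripts of a gene. On the CPM scale it did not differ, since the stem cell means fell from Meg3 to Rian to Mirg in both chemistries. The R10 CPM ranges of Meg3 and Rian in stem cells overlapped. In R9 stem cells Meg3 had 166 ± 31.4 TPM (SD, n = 2), Mirg 53.0 ± 26.8 TPM and Rian 48.7 ± 14.2 TPM. The ranges of Mirg and Rian overlapped. In R10 stem cells Rian was highest, with 230 ± 48.2 TPM (SD, n = 7), before Meg3 with 126 ± 22.0 TPM and Mirg with 8.63 ± 3.31 TPM. The Rian and Meg3 ranges, 136 to 293 and 90.3 to 152 TPM, overlapped in 1 Rian library, the R1 library whose label carries no n number. Dio3 had 3.22 ± 1.72 TPM and Dlk1 0.413 ± 0.628 TPM in R10.

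On the per-length TPM scale, most of the R10 level of Rian came from short transcripts of 1 exon. Rian.G12554.32 is 201 bases long (109636016 to 109636216) and Rian.G12554.28 is 780 bases long (109635944 to 109636723). The deposited classification matched both to a GENCODE transcript of the snoRNA gene AF357425 (73 bases, 109636012 to 109636084), so both lie at that snoRNA within Rian. Its sequence is printed to show the annotated RNA that these transcripts overlap, as in GENCODE M21.
AF357425, chr12:109636012-109636084: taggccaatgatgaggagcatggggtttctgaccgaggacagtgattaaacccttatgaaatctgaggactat
In R10 stem cells Rian.G12554.32 had 69.9 to 163 TPM and made up 53.5% ± 5.96 (SD, n = 7) of the Rian TPM. In R9 it had 20.8 TPM in O4G and 0 in R1. Rian.G12554.28 had 40.5 to 76.7 TPM in the 6 R10 stem cell libraries with an n number and 3.43 TPM in the R1 library without one.

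Rian transcripts of 1 exon together made up 65.2% to 84.3% of Rian TPM in the R10 stem cells, and 35.4% and 15.0% in the R9 O4G and R1 stem cells. Weighted by length, which turns TPM back into a share of reads, 1-exon transcripts made up 37.4% to 50.6% of Rian in the R10 stem cells and 3.77% and 4.35% in R9. Rian.G12554.28 and Rian.G12554.32 together made up 10.2% of the weighted Rian in the R1 library without an n number and 31.5% to 42.9% in the other R10 stem cell libraries. The transcripts of several exons had 33.3 to 59.9 TPM in the R10 stem cells and 37.9 and 32.9 TPM in the R9 stem cells. R10 reprogrammed cells in 2i-LIF had 4.10 TPM (OKMS) and 3.50 TPM (OKS) of the Rian transcripts of several exons, below all 7 stem cell libraries. Their 1-exon Rian transcripts had 16.1 and 31.9 TPM, also below the stem cell range of 88.9 to 235 TPM. These OKMS and OKS libraries had 11 and 7 Rian reads in all, so both kinds of transcript rest on few reads there. In FBS-LIF with dox, the R10 libraries of OKMS at days 10 and 18 and OKS at day 18 had 19.9, 26.1 and 36.0 TPM of Rian, in 1-exon transcripts, but on 6, 4 and 4 Rian reads. The R10 OKS library of day 6 had 7.73 TPM of Rian in transcripts of several exons.

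**Figure D3:**
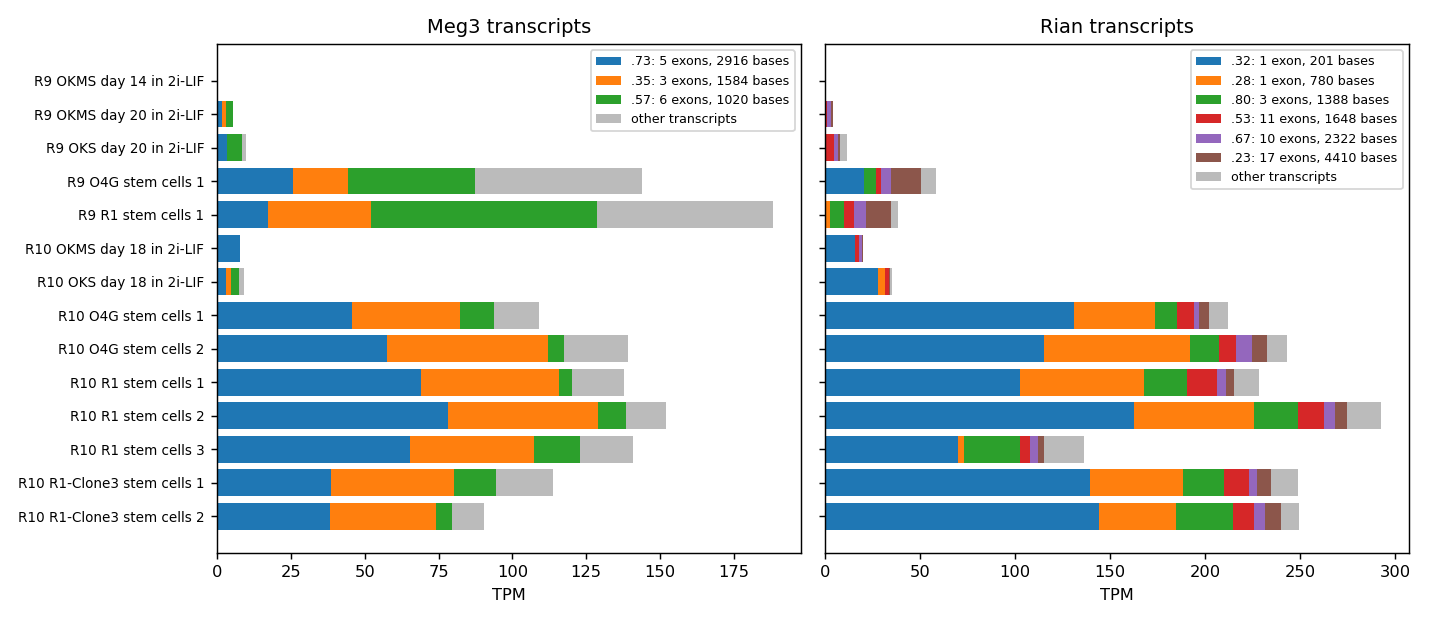
Horizontal bars give the TPM (x axis) of Meg3 (left) and Rian (right) transcripts in each reprogrammed library in 2i-LIF and each stem cell library (y axis), with colours for the named transcripts by the last number of their name and grey for the others. In the R10 stem cells, transcripts 28 and 32 (2 transcripts of 1 exon) fill most of each Rian bar, and transcript 28 is short in the R1 library without an n number.

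On the per-length TPM scale, Meg3 was split between different transcripts in the 2 chemistries. Meg3.G12549.73 (5 exons, 2916 bases, 109547108 to 109571726) and Meg3.G12549.35 (3 exons, 1584 bases, 109540999 to 109545359) led in R10 stem cells, with 44.1% ± 5.98 and 35.4% ± 3.66 of Meg3 TPM (SD, n = 7). The former lacks the annotated first exons and was classified as a 3' fragment, and the latter starts at the annotated start and ends in a retained intron. Its end at 109545359 lies in an A-rich stretch of the genome that closely follows a run of A bases. Whether this is a true end of the RNA was not tested. In R9 stem cells Meg3.G12549.57 led, with 36.5% ± 7.76 (SD, n = 2), at 43.1 TPM in O4G and 76.7 TPM in R1. It has 6 exons over 1020 bases, begins at 109544788 and uses a splice site that the reference lacks. In R10 stem cells it had 4.30 to 15.8 TPM and 7.70% ± 3.79 of Meg3 TPM. In R9 stem cells Meg3.G12549.73 had 17.4 to 25.8 TPM. As it is longer (2916 against 1020 bases), the order of these transcripts by reads can differ from that by TPM. Shares weighted by length were not computed for Meg3. Of the 16 Meg3 transcripts, all but Meg3.G12549.35 ended at 109571726.

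The Meg3 signal of reprogrammed cells in 2i-LIF was spread over 1 to 4 transcripts a library with Meg3 reads. It rests on at most 15 Meg3 reads a library in R9 and on 6 to 8 in R10. Stem cell libraries had at least 166 in R9 and 396 in R10. With so few reads, the number of transcripts seen and the split between them are uncertain. In R9 OKMS at day 20, Meg3.G12549.57, Meg3.G12549.73 and Meg3.G12549.35 had 2.26, 1.58 and 1.46 TPM. In R9 OKS at day 20, Meg3.G12549.57 had 5.04 TPM, Meg3.G12549.73 had 3.52 TPM and Meg3.G12549.28 had 1.42 TPM. In R10 OKMS at day 18 the only Meg3 transcript above 0 was Meg3.G12549.73, with 7.78 TPM. In R10 OKS at day 18 Meg3.G12549.73, Meg3.G12549.57, Meg3.G12549.35 and Meg3.G12549.6 had 2.92, 2.78, 1.79 and 1.52 TPM. The R10 WT library with 75.9 CPM of Meg3 held 12 of the 16 transcripts, led by Meg3.G12549.73 (28.7 TPM) and Meg3.G12549.35 (23.7 TPM) as in stem cells.

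**Figure D4:**
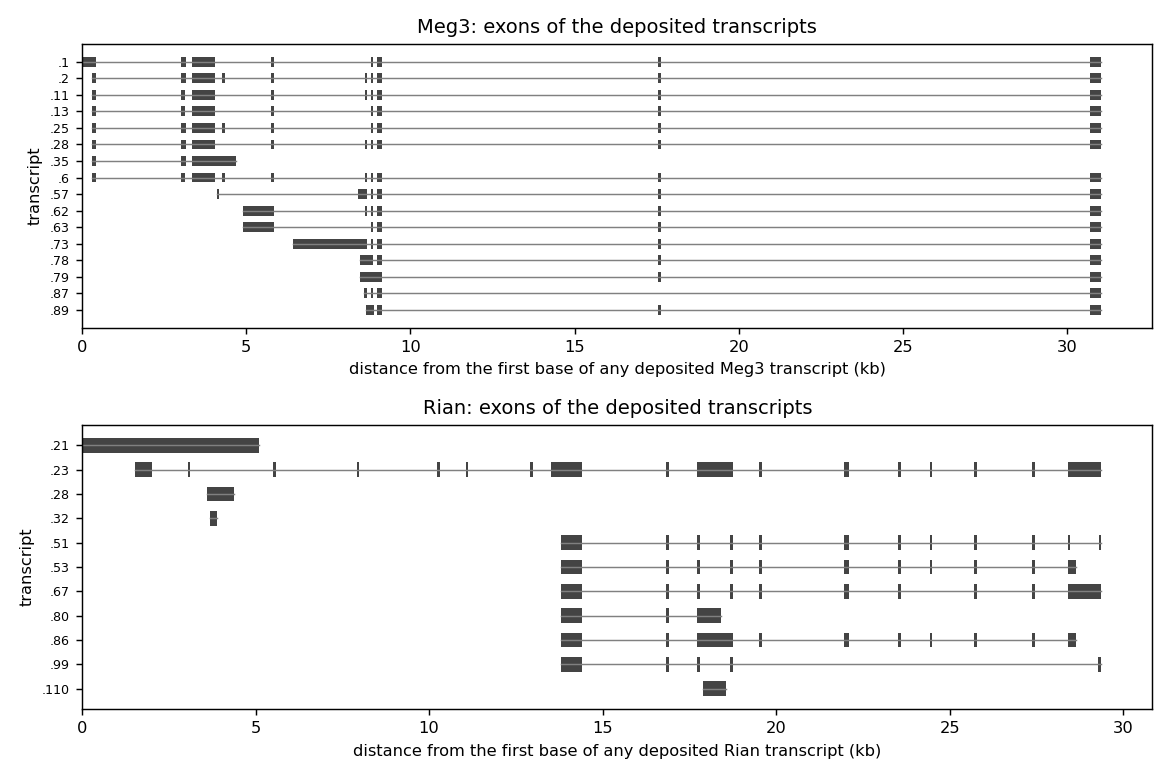
Boxes are exons of each deposited transcript (y axis, last number of the transcript name) of Meg3 (top) and Rian (bottom) along the distance from the first base of any deposited transcript of the gene in kb (x axis). Meg3 transcript 35 stops before 5 kb while the other Meg3 transcripts end together, and Rian transcripts 28 and 32 are short single exons.

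Mirg had 2 transcripts. Mirg.G12562.1 (6 exons, 1216 bases) made up 100.0% of Mirg TPM in the R9 stem cells among transcripts that passed 1 TPM in 2 libraries, and 90.4% ± 6.99 (SD, n = 6) in the R10 stem cells with at least 5 TPM of Mirg. It held the hairpin of the microRNA Mir410 in an exon, and the 2-exon Mirg.G12562.8 held that of Mir3072. The mature sequences are shown, from RefSeq (GRCm38.p6), because these are the hairpins that the deposited Mirg exons carry, with the seed (bases 2 to 8) in capitals.
mmu-miR-410-5p: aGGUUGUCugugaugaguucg
mmu-miR-410-3p: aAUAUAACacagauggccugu
mmu-miR-3072-5p: aGGGACCCcgagggagggcagg
mmu-miR-3072-3p: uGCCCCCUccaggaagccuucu
The 4 seeds differ. Mirg.G12562.1 had 32.7 TPM in O4G and 71.3 TPM in R1 in R9, and 4.67 to 12.1 TPM in the R10 stem cells. In reprogrammed cells in 2i-LIF it had 3.80 and 6.34 TPM in R9 OKMS and OKS at day 20 and 2.66 TPM in R10 OKMS. Mature microRNAs were not measured by these libraries.

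Dlk1 passed 5 TPM in no stem cell library. Where it did pass, in 10 R9 and 5 R10 libraries, the 6-exon Dlk1.G12545.17 led with a mean share of 53.4% and 57.1% of Dlk1 TPM. Dio3 had 1 transcript, of 1 exon and 1863 bases.

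Of 3 other genes within 100 kb of the span from Dlk1 to Dio3, 1 followed the stem cell state. The unannotated 2-exon gene novelGene_9959 (109951165 to 109953291, plus strand) lies between Mirg and Dio3. It had no read in the 8 progenitor libraries, 9.47 and 12.1 CPM in R9 stem cells and 2.59 to 5.98 CPM in R10 stem cells. Its values in reprogrammed cells in 2i-LIF were 7.33, 7.52 and 6.98 CPM in R9 and 15.9 and 6.26 CPM in R10, with no test. The R9 values lay below both stem cell libraries. The R10 values lay above all 7 stem cell libraries, on 9 and 4 reads. The others were the processed pseudogenes Gm3379 and Gm6988.

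The members were also compared across libraries. Over the 23 R10 libraries Pearson's r of log2(CPM + 1) was 0.915 between Meg3 and Rian, 0.851 between Meg3 and Mirg and 0.937 between Rian and Mirg. Over the 22 R9 libraries these were 0.878, 0.889 and 0.923. Dio3 had an r of 0.544 with Meg3, 0.753 with Rian and 0.692 with Mirg in R10, and of 0.632, 0.791 and 0.664 in R9. Dlk1 had an r of -0.39, -0.601 and -0.524 with the same 3 RNAs in R10 and of -0.233, -0.478 and -0.417 in R9. The values are a description, since the libraries share the split between stem cells and all others, and neighbours on 1 strand can share reads. Outside the locus, the genes most like Meg3 were Slc9a3r2 (0.887), Plagl1 (0.884) and Exoc6b (0.873) in R10, and novelGene_2010010A06Rik_AS (0.894), 2300002M23Rik (0.88) and BC048679 (0.868) in R9. For Rian they were Slc9a3r2 (0.947), H2-M5 (0.943) and novelGene_3155 (0.942) in R10, and 2300002M23Rik (0.961), Lipc (0.945) and novelGene_5603 (0.942) in R9. For Mirg they were H2-M5_H2-M6-ps (0.959), novelGene_11233 (0.941) and novelGene_36241 (0.938) in R10, and novelGene_29510 (0.94), novelGene_5603 (0.906) and Pof1b (0.892) in R9. Plagl1, an imprinted zinc finger gene on another chromosome, had mean levels of 26.6 CPM in R10 stem cells, 3.23 CPM in reprogrammed cells in 2i-LIF and 0.851 CPM in progenitors.

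Other imprinted genes and the factors that set or keep imprints were read from lists of 21 and 16 genes. In R10 reprogrammed cells in 2i-LIF against stem cells, 2 of 16 tested imprinted genes were called higher and 2 lower, where 9.06% of all genes were called. Cdkn1c, a cell cycle inhibitor, rose by 2.30 ± 0.41 (limma, adjusted p = 0.00559) and Gnas, a G protein subunit, by 1.37 ± 0.25 (adjusted p = 0.00614). Plagl1 fell by 2.71 ± 0.42 (adjusted p = 0.00299) and Mest by 1.42 ± 0.30 (adjusted p = 0.0121). In edgeR 3 and in DESeq2 4 of these 16 genes were called. Their median difference was -0.65, beside -0.09 over all tested genes. Of 15 tested factors (median difference -0.32), 2 were called lower, the DNA methylation cofactor Dnmt3l (-3.47 ± 0.74, adjusted p = 0.0127) and the demethylation enzyme Tet2 (-1.08 ± 0.27, adjusted p = 0.0245), while edgeR called 0 and DESeq2 1. The members of these lists were chosen with results of these data known. In R9, where 0.711% of all genes were called, limma called 0 of 14 imprinted genes and 0 of 16 factors, with 4 and 1 at an unadjusted p under 0.05. There edgeR called 0 and 1, and DESeq2 called 0 and 0. Cdkn1c was 2.27 ± 0.59 higher in R9 (adjusted p = 0.129), Plagl1 differed by -0.30 ± 0.39 (adjusted p = 0.803) and Dnmt3l by -0.31 ± 0.64 (adjusted p = 0.888). Dppa3, which guards imprints in the egg and early embryo, differed by -2.08 ± 0.49 in R9 (adjusted p = 0.0852) and by -0.87 ± 0.66 in R10 (adjusted p = 0.41).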

How the data were processed

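Gene values were CPM and transcript values TPM, deposited by the authors in 2 tables named after IsoQuant. Reads were aligned with minimap2 (2.24-r1122) to mm10, per the submitters' processing notes. Further steps are not given in the sources used here. The deposited annotation (rtracklayer 1.50.0, per the file headers) and classification gave exons and matches. Strand use in counting is not stated, so overlapping genes are uncertain, and 13 gene columns that matched no sample were not used. Each library's CPM came in steps of 1 read, and 100.0% of values lay within 0.1 reads of a whole number, so reads were recovered. Groups came from the labels.

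Members and lists were chosen with earlier results of these data known. The genes named were the members, genes within 100 kb of the locus, the 3 genes outside it with the highest Pearson r to each noncoding RNA per chemistry, and fixed lists of imprint factors, other imprinted genes and cell type markers. For each member up to 5 transcripts by mean share were considered, in libraries where the gene reached 5 TPM, and after dropping those under 1 TPM in all but 1 library of a chemistry.

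Two-sided tests on log2(CPM + 1) were made in R 4.3.3 with limma 3.58.1 and its mean-variance trend, over genes of at least 1 CPM in as many libraries as the smaller arm. The pseudocount understates changes of low genes. Pairs of media used system and day as a block, and OKMS against OKS used day. The fits were tested on simulated data with 200 changed genes. There the R10 fit of reprogrammed cells in 2i-LIF against stem cells called more unchanged than changed genes. The balance depends on that setting. TPM times transcript length was used as the weight of a transcript in reads. Each fit was repeated with quantile normalization, median centring, a pseudocount of 0.25, a 5 CPM minimum or no filter, with edgeR 4.0.16 and DESeq2 1.42.0 on recovered reads, and, where the design allowed, with other arms or blocks and with each library, or each pair where pairs are a block, left out. One more, O4G stem cells alone in R9, was chosen after seeing the data. Figures and tables were made with Python 3.11.15, pandas 2.3.3 and numpy 2.4.6.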

Additional observations from a re-analysis of the deposited data

Results flagged for a closer look

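In 11 groups of 4 or 7 libraries, 2 held a library far from the others by Dixon's criterion. Chance flags about 1 of 20 groups if the values are normally distributed. Meg3 had 2.67 CPM in 1 R9 WT progenitor library (replicate 1), on 2 reads, and no read in the other 3 R9 progenitor libraries. Dio3 had 7.75 CPM in the second R1-Clone3 library, on 20 reads, while the other 6 R10 stem cell libraries had 1.88 to 4.03 CPM.

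The values of Meg3 and Dlk1 differed in opposite directions in OKMS and OKS cells on the change from FBS-LIF with dox to 2i-LIF in R9, and these differences between the systems were not tested. Meg3 was 16.0 CPM higher in 2i-LIF in OKS at day 20 (2 reads in FBS-LIF with dox and 15 in 2i-LIF). It differed by -4.22 CPM in OKMS at day 14 (4 and 0 reads) and by -0.938 CPM in OKMS at day 20 (6 reads in each, so not distinguishable by counting). Dlk1 was 1.16 CPM higher in OKS, on 1 read, and differed by -10.6 and -6.31 CPM in the OKMS pairs. In R10 both genes were higher in 2i-LIF in both systems.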

How the results depend on the processing

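In R9 reprogrammed cells in 2i-LIF against stem cells (3 called), the count was 0 with a pseudocount of 0.25, with no filter and with quantile normalization, and 1 with DESeq2. Leaving out 1 library gave 0 to 0, and O4G stem cells alone, which is the same fit as that without R1, gave 0. In R10 (4 called), it was 2 with edgeR, with DESeq2, with O4G alone and with R1 and R1-Clone3 alone, and 2 to 5 when 1 library was left out. In R10 stem cells against progenitors, which the choice used, 5 genes were past the thresholds and 3 with a minimum of 5 CPM, with nothing read from either. For R9 2i-LIF against FBS-LIF with dox (1 called) it was 0 with a minimum of 5 CPM, 2 with edgeR, 0 with DESeq2 and 0 to 1 when a pair was left out. For R10 WT cells in FBS-LIF with dox (1 called) it was 0 to 1 when a library was left out. For the R9 days (0 called) it was 1 with edgeR and 0 to 1 when a library was left out. The 1 call there, without OKS at day 20, was Dio3, on 1 read, and with no filter Dio3 was tested and not called. Leaving out a pair of R10 media leaves 1 pair and no residual degrees of freedom, so that was not fitted. With a minimum of 5 TPM per transcript, the R10 stem cell share of Meg3.G12549.73 was 50.5% and that of Mirg.G12562.1 was 100.0%. The cause of these shifts was not tested. No called member changed sign.

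With the replicate number as a block, 3 locus genes were called (Meg3, Rian with adjusted p = 0.0161 and Dlk1 with adjusted p = 0.00966) in R10 WT cells in FBS-LIF with dox, and 5605 genes in place of 3940. The number pairs only 2 libraries a group here (correlation of deviations 0.416), so it was not taken as a pairing. In the stem cell lines the correlations were 0.129, 0.0561 and 0.105, and a block needs the R1 library without an n number (replicate 3) left out. For R1 minus O4G, R1-Clone3 minus O4G and R1 minus R1-Clone3, limma called 0, 1 and 5 of all genes. Leaving out that library gave 116, 272 and 454, and adding the replicate block then gave 237, 467 and 633. Locus genes called were 0 in each, with nothing read from that, since line differences entered the choice. All genes called moved by over 1.5 times in R9 reprogrammed cells in 2i-LIF against stem cells (110 in limma, 7 to 187 under alternatives), in R10 (1438 in limma, 57 with O4G alone, 270 in edgeR, 469 in DESeq2), in the R9 days (2078 in limma, 371 to 4568), in R9 2i-LIF against FBS-LIF with dox (1166 in limma, 527 with quantile normalization), in R10 2i-LIF against FBS-LIF with dox (188 in limma, 0 to 846), in R9 OKMS against OKS (2567 in limma, 1686 without the pair of day 6), in R10 WT cells (3940 in limma, 0 without WT day 2 replicate 2 or either progenitor library) and in R10 factor-carrying against WT progenitors (212 in limma, 0 without OKMS or OKS). At the R9 depths 1 read is worth up to 2.23 CPM, so levels of Mirg and Dio3 under a few CPM rest on single reads.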
